A study of Mus musculus with 24 samples.

Results

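Gene expression in mouse hearts that lacked Xinβ was compared with that in wild-type (WT) hearts when both had received an adeno-associated virus that carries GFP. The comparison took every library whose label paired the *Xinβ* knockout (KO) or WT genotype with AAV9-GFP, 4 KO/GFP and 4 WT/GFP hearts, or 8 of the 24 libraries of the series. The KO mice carried a germline deletion in which parts of exons and an intron of *Xinβ* (gene symbol *Xirp2*) were replaced by a LacZ-Neo cassette, so every cell type lacked the intact gene. The line was backcrossed to C57BL6, and WT mice were littermates. Pups of both genotypes were injected under the skin at postnatal day 1 with AAV9-GFP, and hearts were taken at postnatal day 7.5, so the virus, its chicken cardiac troponin T promoter, which is active in cardiomyocytes, and GFP were shared by both groups. The labels name the tissue as the heart apex, which holds all the cell types of the ventricle, and polyA RNA was read in paired-end reads of 150 bp. The other libraries used here are 4 uninjected KO and 4 uninjected WT hearts of the same age, which were sequenced separately in 50 bp single-end reads.

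Xin proteins bind actin and catenins and are found at the intercalated disc, the junction that couples cardiomyocytes end to end. Mouse cardiomyocytes leave the cell cycle in the first days after birth, while the heart turns from glucose to fatty acids as its fuel. YAP, the transcriptional coactivator restrained by the Hippo kinases, promotes cardiomyocyte division at this age, and the GFP virus is the control of the series for a virus that carries an activated YAP.

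The 8 libraries held 16209797 to 19444404 reads on genes. Values are CPM, read counts scaled to library size by the authors, and differences are KO/GFP minus WT/GFP on the log2(CPM + 1) scale, which understates the change of genes near or below 1 CPM. The test was made with limma for genes that exceeded 1 CPM in 4 or more libraries, and a gene is called changed where the Benjamini-Hochberg adjusted p was under 0.05. The KO/GFP hearts varied more among themselves than the WT/GFP hearts, with a median SD per gene of 0.243 against 0.179 on the log2 scale. KO/GFP heart 2 stood apart. Its score on the first principal component was 1.85, against 12.3 to 48.6 for the other KO/GFP hearts and -30.2 to -20.9 for the WT/GFP hearts, and its score on the second was -46.6, against -1.34 to 14.6 for all others. KO/GFP heart 2 and WT/GFP heart 4 had female patterns of sex-linked transcripts and the others male ones, except that WT/GFP heart 3 had *Xist*, which female cells transcribe, at 97.1 CPM beside the Y-linked *Ddx3y* at 56.7 CPM. Values are listed in the order of hearts 1 to 4, and counts are also given without single hearts. The cardiomyocyte markers summed to 62877 to 74035 CPM in KO/GFP hearts and 54288 to 68484 CPM in WT/GFP hearts, so the cells that define the labelled tissue were well represented.

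*Xirp2* (ENSMUSG00000027022, chromosome 2, 67446002 to 67526614 on the plus strand of GRCm38) was read first, as a check of the labels. It was at 0.497, 0.327, 0.176 and 0.220 CPM in the KO/GFP hearts and 103, 99.0, 115 and 149 CPM in the WT/GFP hearts. The groups did not overlap, and the difference was -6.48 ± 0.16 (SE). *Xirp1*, which encodes the related Xin actin-binding protein Xinα, was at 249, 181, 278 and 238 CPM in the KO/GFP hearts and 211, 218, 184 and 204 CPM in the WT/GFP hearts, overlapping ranges, with a difference of 0.20 ± 0.13 (SE, adjusted p = 0.412). Without KO/GFP heart 2 its adjusted p was 0.0516.

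A targeted allele brings along neighbouring sequence of the embryonic stem cell strain, so the genes near *Xirp2* were counted. Of the 42 tested genes within 5 Mb of *Xirp2*, 4 were called (9.52%), and of the 92 within 10 Mb, 6 were called (6.52%), beside 6.55% of all tested genes. Without *Gm13601*, which passed the filter only through the WT/GFP hearts, 3 of 41 within 5 Mb were called (7.32%). *Gm13601* is an antisense RNA gene that lies inside *Xirp2* (chromosome 2, 67491044 to 67516525, minus strand). It was listed at 0 in all 4 KO/GFP hearts and at 1.20 to 1.79 CPM in WT/GFP hearts. The libraries were strand-specific, but whether the counting used strand is not given in the sources used here, so reads of *Xirp2* and *Gm13601* may not be separable. *Fap*, a surface protease of activated fibroblasts, was lower at 3.60, 3.53, 4.80 and 3.64 CPM in KO/GFP hearts against 8.96, 11.2, 14.03 and 10.5 CPM in WT/GFP hearts (log2 difference -1.31 ± 0.17 SE, adjusted p = 0.00353). *Scn3a*, a sodium channel gene, differed by 1.12 ± 0.23 (SE, adjusted p = 0.0236) and *Fign*, which encodes a microtubule-severing enzyme, by 1.03 ± 0.16 (SE, adjusted p = 0.00823). The *Scn3a* call was lost when KO/GFP heart 1 or 4 or WT/GFP heart 1 or 2 was left out (adjusted p 0.0522 to 0.0776). The ranges of *Fap*, *Scn3a* and *Fign* did not overlap between the groups.

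Across the genome, 14687 genes were tested and 962 were called (6.55%), of which 532 were higher (3.62%) and 430 lower (2.93%) in KO/GFP hearts. Of the called genes, 330 changed at least 2-fold, 185 up and 145 down. The KO/GFP and WT/GFP ranges did not overlap for 2254 genes (15.3% of those tested), among them 942 of the called genes. Of the tested genes, 74 passed the filter only through 1 group, the other being at or below 1 CPM in all 4 hearts, so their levels had to differ. Among the called genes they were 27 of the higher and 24 of the lower ones. The count changed whichever heart was left out, which also made its group smaller. Without KO/GFP heart 2 it rose to 1883, with 975 higher (6.64%) and 908 lower (6.18%), and without KO/GFP heart 1 it fell to 262. Without KO/GFP heart 4 it was 431, and without WT/GFP hearts 1, 2, 3 or 4 it was 409, 312, 580 or 411. The split also depended on scaling. When each library was rescaled to the same column sum, the median difference over all tested genes moved from -0.005 to -0.10, and 344 genes were called higher and 840 lower.

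**Figure D1:**
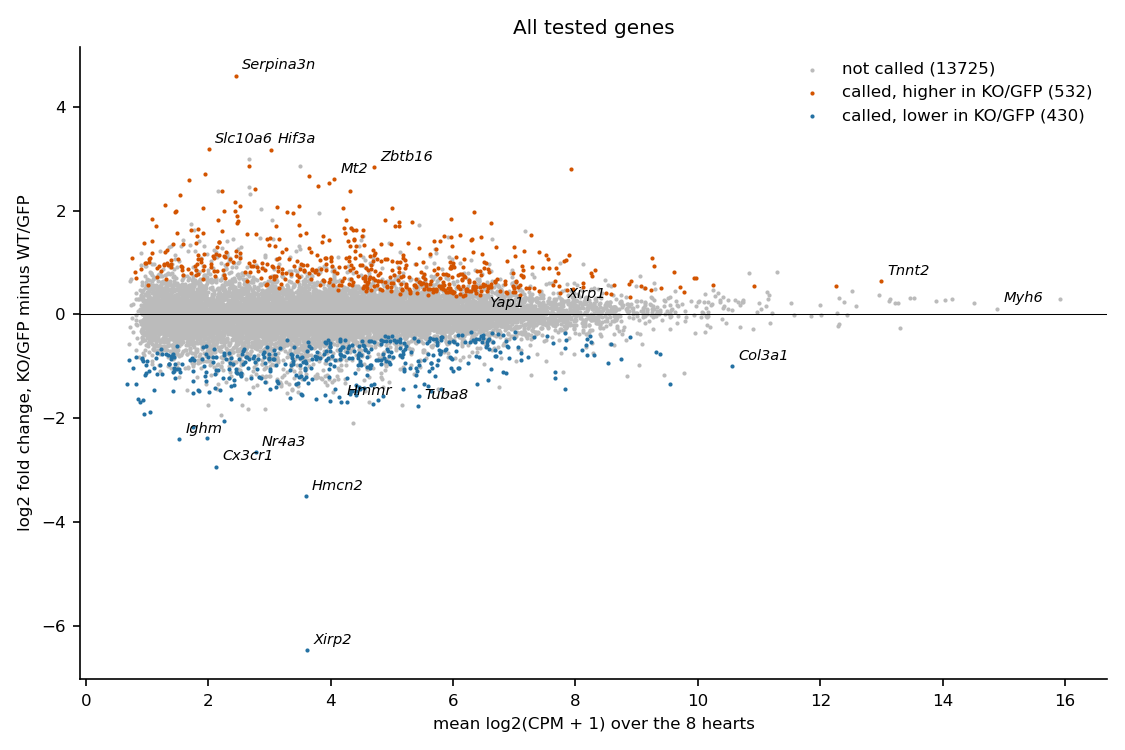
Difference between KO/GFP and WT/GFP hearts (y axis, log2) against mean expression (x axis, log2(CPM + 1)) for the 14687 tested genes, one point each, with called genes in colour and named genes labelled. The 532 genes called higher and 430 called lower lie at low and at high expression, with none of the 13 mitochondrially encoded genes of the respiratory chain among them. *Xirp2* lies lowest at -6.48.

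The 9 leading increases described here ranged from 2.58 to 4.60 on the log2 scale. *Serpina3n*, an acute-phase inhibitor of serine proteases, was at 69.7, 2.94, 18.9 and 94.5 CPM in the KO/GFP hearts and 0.120, 0.167, 0.163 and 0 CPM in the WT/GFP hearts. The groups did not overlap, although KO/GFP heart 2 was far below the other KO/GFP hearts, and the difference was 4.60 ± 0.82 (SE). *Lcn2*, which encodes the iron-sequestering protein lipocalin 2 and rises in inflammation, was at 10.7, 2.29, 4.68 and 16.5 CPM in the KO/GFP hearts and 0.299, 0, 0.435 and 0.603 CPM in the WT/GFP hearts, a difference of 2.58 ± 0.45 (SE). Both genes, and *Slc10a6* and *Tent5b* below, passed the filter only through the KO/GFP hearts, so their differences are given as a description, with no p.

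*Slc10a6*, which encodes a carrier of sulfated steroids, was at 18.4, 4.64, 7.96 and 21.4 CPM in the KO/GFP hearts and 0.239, 0.223, 0.381 and 0.548 CPM in the WT/GFP hearts (log2 difference 3.18 ± 0.39 SE). *Hif3a*, a hypoxia-inducible factor subunit, was at 52.9, 12.3, 5.91 and 72.2 CPM in the KO/GFP hearts and 1.79, 0.781, 2.45 and 2.14 CPM in the WT/GFP hearts (log2 difference 3.18 ± 0.66 SE, adjusted p = 0.0236). The *Hif3a* call was lost when KO/GFP heart 1 or WT/GFP heart 1, 2 or 4 was left out (adjusted p 0.0583 to 0.0742). *Zbtb16*, a zinc finger transcription factor known to respond to glucocorticoids, was at 98.3, 20.01, 134 and 85.8 CPM in the KO/GFP hearts and 16.4, 13.7, 7.99 and 3.01 CPM in the WT/GFP hearts (log2 difference 2.84 ± 0.60 SE, adjusted p = 0.024). In each of these genes every KO/GFP heart was above every WT/GFP heart, with KO/GFP heart 2 or heart 3 the lowest of the KO/GFP hearts. The *Zbtb16* call was lost when KO/GFP heart 1 or 4 or WT/GFP heart 2, 3 or 4 was left out (adjusted p 0.0525 to 0.0779).

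*Mt2*, a metallothionein that binds zinc and copper, was at 52.0, 25.5, 36.4 and 54.0 CPM in the KO/GFP hearts and 10.3, 6.19, 5.22 and 3.18 CPM in the WT/GFP hearts (log2 difference 2.61 ± 0.32 SE, adjusted p = 0.00254). *Tent5b*, a poly(A) polymerase gene, was at 12.3, 2.88, 13.9 and 11.3 CPM in the KO/GFP hearts and 0, 0.669, 0.652 and 0.877 CPM in the WT/GFP hearts (log2 difference 2.71 ± 0.40 SE). The *Mt2* call held without any 1 heart. *Slc15a2*, a peptide transporter gene, differed by 2.86, and its call was lost when KO/GFP heart 1 or WT/GFP heart 2 was left out (adjusted p 0.052 to 0.0555). *Spock2*, a matrix proteoglycan gene, differed by 2.66, and its call was lost when KO/GFP heart 1 or 4 or WT/GFP heart 1, 2, 3 or 4 was left out (adjusted p 0.0593 to 0.0946).

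After *Xirp2*, the largest decrease was in *Hmcn2*, which encodes the matrix protein hemicentin 2, at 1.61, 4.84, 5.03 and 0.771 CPM in the KO/GFP hearts and 37.1, 34.2, 50.5 and 38.5 CPM in the WT/GFP hearts (log2 difference -3.51 ± 0.37 SE, adjusted p = 0.00144). *Cx3cr1*, the fractalkine receptor of resident macrophages, was at 0.497, 0.785, 0.468 and 0.606 CPM in the KO/GFP hearts and 17.2, 9.37, 9.24 and 10.2 CPM in the WT/GFP hearts (log2 difference -2.94 ± 0.21 SE). *Fcrls*, a scavenger receptor gene of resident macrophages, was at 0.993, 0.523, 0.234 and 1.43 CPM in the KO/GFP hearts and 9.08, 7.42, 7.39 and 8.44 CPM in the WT/GFP hearts (log2 difference -2.38 ± 0.22 SE, adjusted p = 8.86e-04). All 3 were low in each of the 4 KO/GFP hearts, KO/GFP heart 2 included. *Ighm*, the immunoglobulin M heavy chain of B cells, was at 0, 0.327, 0.819 and 0 CPM in the KO/GFP hearts and 6.93, 4.74, 5.22 and 5.81 CPM in the WT/GFP hearts (log2 difference -2.41 ± 0.22 SE), and *Cma1*, a mast cell protease, at 0, 0, 0.351 and 0 CPM in the KO/GFP hearts and 4.004, 2.79, 3.04 and 2.301 CPM in the WT/GFP hearts (log2 difference -1.89 ± 0.19 SE). Every KO/GFP heart was below 1 CPM for *Cx3cr1*, *Ighm* and *Cma1*, as for *Xirp2*, so these 4 passed the filter only through the WT/GFP hearts and are given as a description, with no p. In tissue samples such as these, fewer cells of a type and less RNA per cell cannot be told apart.

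*Nr4a3*, an orphan nuclear receptor induced by many stimuli, was at 2.297, 1.31, 1.64 and 1.76 CPM in the KO/GFP hearts and 8.55, 12.2, 27.9 and 22.7 CPM in the WT/GFP hearts (log2 difference -2.65 ± 0.32 SE, adjusted p = 0.00259). *Akap5*, an anchor of protein kinase A, was at 0.497, 1.44, 2.87 and 1.16 CPM in the KO/GFP hearts and 4.84, 8.31, 11.3 and 12.7 CPM in the WT/GFP hearts (log2 difference -2.06 ± 0.33 SE, adjusted p = 0.00869). *Tuba8*, an α-tubulin gene with high levels in heart and skeletal muscle, was at 20.9, 24.2, 30.4 and 16.1 CPM in the KO/GFP hearts and 98.4, 70.9, 83.8 and 63.1 CPM in the WT/GFP hearts (log2 difference -1.76 ± 0.20 SE, adjusted p = 0.00194). The groups did not overlap for any of these genes. The last of the 10, *Cdh23*, a cadherin gene known from hair cells, differed by -2.17 ± 0.25 (SE, adjusted p = 0.00237). The calls of *Hmcn2*, *Fcrls*, *Nr4a3*, *Akap5*, *Tuba8* and *Cdh23* held without any 1 of the 8 hearts.

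**Figure D2:**
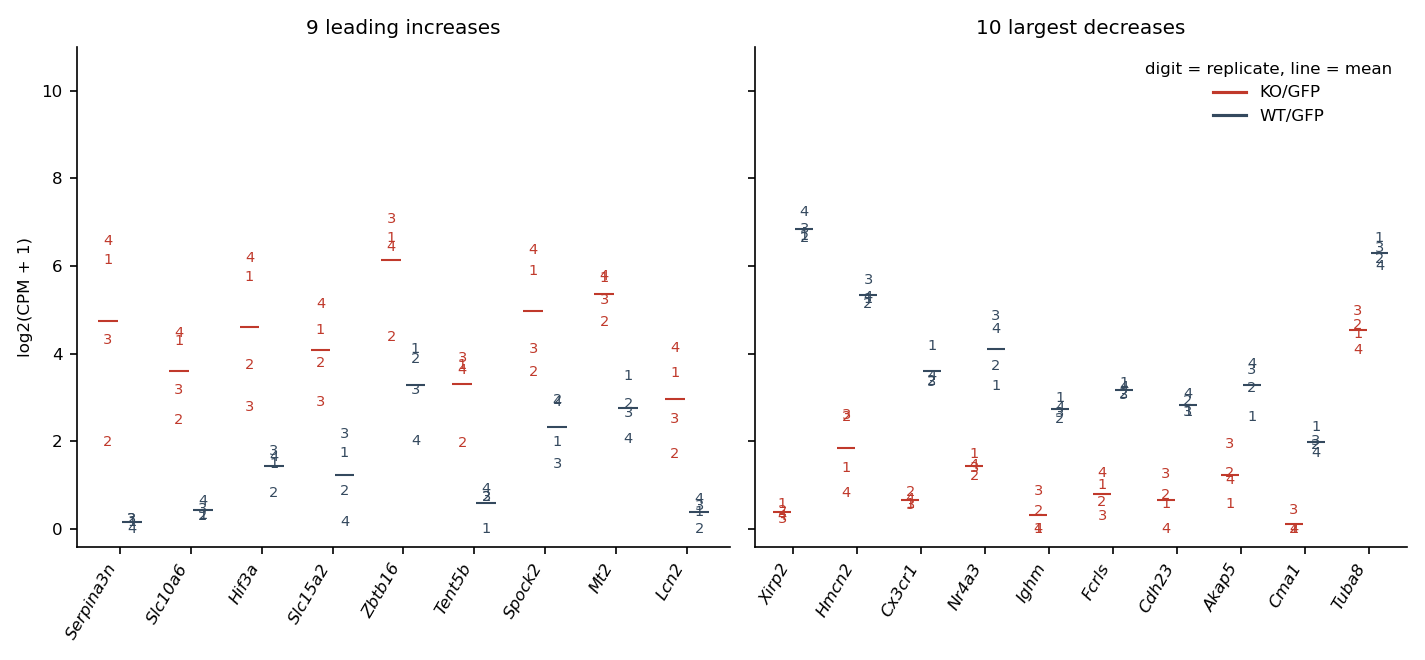
Level of leading genes in each heart, as log2(CPM + 1) on the y axis, with each KO/GFP and WT/GFP heart drawn as its replicate number and a line at the group mean, for 9 leading increases and the 10 largest decreases on the x axis. *Hmcn2*, *Cx3cr1* and *Fcrls* are low in all 4 KO/GFP hearts, whereas *Serpina3n* and *Hif3a* are spread widely among KO/GFP hearts.

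Gene lists were then read by the number of their members called and by their median difference, beside the 3.62% of tested genes called higher, the 2.93% called lower and the median of -0.005 over all tested genes. The lists were chosen with earlier results of these data known, so their shares are a description and not independent support. The list with the largest share of members called higher was that of glucocorticoid-responsive genes. Glucocorticoids bind a nuclear receptor that activates genes for metabolism, circadian timing and the control of inflammation. Of 22 tested members, 17 were called higher and none lower, with a median of 1.46. Leaving out single hearts moved the count from 10 without KO/GFP heart 1 or WT/GFP heart 2 to 18 without KO/GFP heart 2. *Fkbp5*, the cochaperone that feeds back on the glucocorticoid receptor, was at 97.9, 25.4, 57.3 and 119.7 CPM in the KO/GFP hearts and 18.8, 15.8, 12.7 and 12.3 CPM in the WT/GFP hearts (log2 difference 2.06 ± 0.40 SE, adjusted p = 0.0189). The *Fkbp5* call was lost when KO/GFP heart 1 or WT/GFP heart 2 or 4 was left out (adjusted p 0.0538 to 0.0642). *Klf15*, a Krüppel-like factor of metabolic genes, was at 44.9, 18.6, 36.5 and 57.0 CPM in the KO/GFP hearts and 7.35, 4.57, 12.9 and 9.09 CPM in the WT/GFP hearts (log2 difference 2.06 ± 0.35 SE, adjusted p = 0.0113). *Mt1*, a second metallothionein gene, was at 159.9, 136, 122 and 177 CPM in the KO/GFP hearts and 58.5, 49.6, 62.8 and 38.0 CPM in the WT/GFP hearts (log2 difference 1.50 ± 0.17 SE, adjusted p = 0.00214). In these 3 genes every KO/GFP heart was above every WT/GFP heart, with heart 2 the lowest KO/GFP heart for *Fkbp5* and *Klf15* and heart 3 for *Mt1*.

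Other members called higher had known roles in transcription, growth control and ion balance. *Cebpd*, a bZIP transcription factor of the inflammatory response, was at 39.5, 19.8, 27.8 and 43.5 CPM in the KO/GFP hearts and 10.8, 8.92, 12.0 and 8.16 CPM in the WT/GFP hearts (log2 difference 1.57 ± 0.23 SE, adjusted p = 0.00728). *Fam107a*, an actin-associated stress gene, was at 13.9, 5.30, 11.6 and 15.2 CPM in the KO/GFP hearts and 1.97, 2.96, 1.20 and 1.26 CPM in the WT/GFP hearts (log2 difference 2.09 ± 0.31 SE, adjusted p = 0.00726). *Map3k6*, a stress kinase gene, differed by 1.63 ± 0.28 (SE, adjusted p = 0.0114). These calls held without any 1 heart. *Sgk1*, a kinase that regulates ion channels, was at 132, 124, 102 and 150.4 CPM in the KO/GFP hearts and 62.4, 60.9, 89.8 and 75.1 CPM in the WT/GFP hearts (log2 difference 0.81 ± 0.15 SE, adjusted p = 0.0161), so the lowest KO/GFP heart was just above the highest WT/GFP heart. The *Sgk1* call was lost when KO/GFP heart 1 or WT/GFP heart 1 or 2 was left out (adjusted p 0.0501 to 0.0612). *Glul*, glutamine synthetase, differed by 1.04 ± 0.23 (SE, adjusted p = 0.0283). The *Glul* call was lost when KO/GFP heart 1 or 4 or WT/GFP heart 1, 2 or 4 was left out (adjusted p 0.0603 to 0.0899).

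The promoters of the list members were searched on both strands for the letters GNACA and TGTNC with 3 bases of any kind between them, a form of the palindrome to which the glucocorticoid receptor binds, in windows from 250 bases before to 50 bases after the start in RefSeq on GRCm38.p6. Of 21 members with a promoter in the table, 4 held it (19.05%), against 0.537% of all genes in the table. Counted by promoter, 5 of the 35 promoters of these members held it (14.3%), against 0.475% of all 32851 promoters. A match describes letters only and is not a measured site. A promoter with the palindrome is shown for each of the 4 members that held it, written 5′ to 3′ with the match in capitals. These lie at chr8:94178839-94179138, plus strand for *Mt1*, chr10:21993640-21993939, plus strand for *Sgk1*, chr14:8309730-8310029, minus strand for *Fam107a* and chr4:133240568-133240867, plus strand for *Map3k6*.
Mt1: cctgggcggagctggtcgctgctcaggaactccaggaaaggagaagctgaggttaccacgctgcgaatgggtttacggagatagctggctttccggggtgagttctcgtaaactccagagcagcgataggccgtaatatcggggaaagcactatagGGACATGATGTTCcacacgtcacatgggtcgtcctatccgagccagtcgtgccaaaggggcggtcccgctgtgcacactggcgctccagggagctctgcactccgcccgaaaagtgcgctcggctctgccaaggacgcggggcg
Sgk1: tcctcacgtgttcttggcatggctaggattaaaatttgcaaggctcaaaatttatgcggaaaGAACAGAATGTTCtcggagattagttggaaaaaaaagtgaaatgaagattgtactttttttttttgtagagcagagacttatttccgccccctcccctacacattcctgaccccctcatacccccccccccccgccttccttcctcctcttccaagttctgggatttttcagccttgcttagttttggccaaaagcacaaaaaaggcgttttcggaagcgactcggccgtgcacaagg
Fam107a: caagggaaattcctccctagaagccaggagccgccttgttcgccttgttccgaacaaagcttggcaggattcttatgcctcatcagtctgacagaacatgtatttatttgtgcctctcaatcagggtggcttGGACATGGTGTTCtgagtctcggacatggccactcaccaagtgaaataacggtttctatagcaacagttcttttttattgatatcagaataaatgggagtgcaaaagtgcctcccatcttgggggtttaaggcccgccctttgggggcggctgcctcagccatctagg
Map3k6: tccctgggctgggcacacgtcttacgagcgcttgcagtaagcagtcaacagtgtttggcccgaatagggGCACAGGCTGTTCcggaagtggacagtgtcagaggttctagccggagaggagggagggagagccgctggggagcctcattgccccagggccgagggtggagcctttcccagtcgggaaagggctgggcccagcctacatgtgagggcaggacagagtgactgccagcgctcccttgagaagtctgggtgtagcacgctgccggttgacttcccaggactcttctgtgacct
The matches began 94 bases before the start in *Mt1*, 188 in *Sgk1*, 118 in *Fam107a* and 181 in *Map3k6*. All 4 of these genes were called higher in KO/GFP hearts, as were 17 of the 22 tested members of the list with or without the palindrome. The list was made of genes that respond to glucocorticoids, so the share with the palindrome is not a result about these hearts.

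The products of genes of fatty acid uptake and oxidation, many of them targets of the PPAR receptors, let the postnatal heart burn its main fuel. Of 30 tested members, 13 were called higher and none lower, with a median of 0.56, and leaving out single hearts moved the count from 3 without KO/GFP heart 1 or WT/GFP heart 2 to 22 without KO/GFP heart 2. It was 19 with DESeq2 and 8 with column-sum scaling. *Slc27a1*, a fatty acid transport protein gene, was at 267, 274, 232 and 319 CPM in the KO/GFP hearts and 119.6, 106, 142 and 120.4 CPM in the WT/GFP hearts (log2 difference 1.15 ± 0.12 SE, adjusted p = 0.00144). *Mlycd*, which encodes the malonyl-CoA decarboxylase that relieves the block on fatty acid entry into mitochondria, was at 191, 162, 152 and 217.5 CPM in the KO/GFP hearts and 98.3, 97.6, 124 and 100.6 CPM in the WT/GFP hearts (log2 difference 0.77 ± 0.13 SE, adjusted p = 0.0115). Both were higher in every KO/GFP heart, and both calls held without any 1 heart. *Lpl*, the lipase that releases fatty acids from circulating triglycerides, differed by 0.56 ± 0.14 (SE, adjusted p = 0.0419). The *Lpl* call was lost when KO/GFP heart 1 or 4 or WT/GFP heart 1, 2, 3 or 4 was left out (adjusted p 0.0573 to 0.129). *Fabp3*, the heart fatty acid binding protein and the most abundant member, differed by 0.18 ± 0.15 (SE, adjusted p = 0.519) and overlapped between groups. With quantile normalization the *Fabp3* difference was -0.02.

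Other fuel genes had few or no called members. Of 22 tested genes of glucose uptake and glycolysis, 1 was called higher and none lower. The number higher moved from 0 without KO/GFP heart 1 or 4 or WT/GFP heart 1 or 3 to 1 without KO/GFP heart 2 or 3 or WT/GFP heart 2 or 4. One gene was called lower without KO/GFP heart 2, and 2 with column-sum scaling. None of the 74 tested nuclear genes of the respiratory chain was called, with a median of 0.03 that was negative with quantile or column-sum scaling, and none of the 13 mitochondrially encoded genes, with a median of 0.28. The mitochondrial median was 0.04 with quantile normalization and 0.17 with column-sum scaling. The mean log2 level of the mitochondrial list relative to WT/GFP was 0.12, 0.85, 0.20 and 0.09 in the KO/GFP hearts and -0.15, -0.07, 0.36 and -0.14 in the WT/GFP hearts, so KO/GFP heart 2 was highest and the groups overlapped. In the nuclear list 2 genes, and in the mitochondrial list 0, had an unadjusted p under 0.05. In them edgeR called 0 and 0 and DESeq2 1 and 0.

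Of 48 tested genes of mitosis, 16 were called lower and none higher. All 48 had negative differences, with a median of -1.25, and the KO/GFP and WT/GFP ranges did not overlap for 28 of them, beside 15.3% of all tested genes. The number called depended on the hearts in the fit, and leaving out a heart also made its group smaller. This number moved from 0 without KO/GFP heart 1 or WT/GFP heart 2 or 4 to 43 without KO/GFP heart 2. It was 1 and 2 without WT/GFP hearts 1 and 3 and 6 without KO/GFP heart 4, and it was 5 with edgeR, 28 with DESeq2 and 27 with column-sum scaling. *Hmmr*, a spindle-associated protein gene, was at 7.26, 17.3, 11.9 and 4.19 CPM in the KO/GFP hearts and 30.3, 35.3, 28.2 and 31.2 CPM in the WT/GFP hearts (log2 difference -1.68 ± 0.33 SE, adjusted p = 0.0183). The *Hmmr* call was lost when KO/GFP heart 1 or WT/GFP heart 2 or 4 was left out (adjusted p 0.0523 to 0.0639). *Cdc20*, the activator of the anaphase-promoting complex, was at 9.93, 24.5, 12.8 and 5.18 CPM in the KO/GFP hearts and 40.3, 42.6, 31.0 and 29.7 CPM in the WT/GFP hearts (log2 difference -1.55 ± 0.36 SE, adjusted p = 0.0327). The *Cdc20* call was lost when KO/GFP heart 1 or WT/GFP heart 1, 2, 3 or 4 was left out (adjusted p 0.0629 to 0.0966). *Aurka*, the kinase that matures the spindle poles, was at 3.66, 11.1, 9.71 and 2.42 CPM in the KO/GFP hearts and 21.9, 18.96, 17.9 and 15.5 CPM in the WT/GFP hearts (log2 difference -1.53 ± 0.37 SE, adjusted p = 0.039). The *Aurka* call was lost when KO/GFP heart 1 or 4 or WT/GFP heart 1, 2, 3 or 4 was left out (adjusted p 0.0705 to 0.117). In these genes KO/GFP heart 4 was the lowest of all hearts and heart 2 the highest of the KO/GFP hearts.

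Members measured by qRT-PCR in the study, and the abundant member *Mki67*, were followed as well. *Ccnb1*, the mitotic cyclin B1, was at 6.70, 18.3, 13.1 and 4.08 CPM in the KO/GFP hearts and 33.5, 39.9, 26.4 and 22.0 CPM in the WT/GFP hearts (log2 difference -1.60 ± 0.38 SE, adjusted p = 0.0361). The *Ccnb1* call was lost when KO/GFP heart 1 or 4 or WT/GFP heart 1, 2, 3 or 4 was left out (adjusted p 0.0623 to 0.109). *Cdk1*, its partner kinase, was at 11.3, 31.4, 23.3 and 4.30 CPM in the KO/GFP hearts and 42.4, 35.3, 36.5 and 28.2 CPM in the WT/GFP hearts, with a difference of -1.27 ± 0.47 (SE, adjusted p = 0.138). KO/GFP heart 2 lay within the WT/GFP range of *Cdk1*. *Top2a*, the topoisomerase of condensing chromosomes, was at 30.0, 65.1, 54.5 and 13.1 CPM in the KO/GFP hearts and 116, 105, 86.7 and 96.5 CPM in the WT/GFP hearts, without overlap, and differed by -1.51 ± 0.40 (SE, adjusted p = 0.0531). *Mki67*, the classic marker of cycling cells, was at 57.2, 148, 104 and 20.6 CPM in the KO/GFP hearts and 196.03, 189, 156 and 160.4 CPM in the WT/GFP hearts and differed by -1.40 ± 0.48 (SE, adjusted p = 0.115). For *Top2a* and *Mki67* the lowest KO/GFP heart was heart 4 and the highest was heart 2, and neither difference passed the threshold.

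Mitotic promoters often hold TTTGAA, the core of the cell cycle homology region, and CCAAT boxes. Of 39 mitosis genes with a promoter in the table, 29 held TTTGAA on either strand (74.4%, against 20.2% of all genes) and 29 held CCAAT (74.4%, against 41.1%). Both occurred in 26 (66.7%, against 8.97%). Counted by promoter, 31 of the 41 promoters of these genes held TTTGAA and 31 held CCAAT (75.6% each). Over all 32851 promoters of the same length the shares were 17.9% for TTTGAA and 37.4% for CCAAT, and a match to one can share at most 1 base with a match to the other. The promoters of *Hmmr*, *Cdc20* and *Aurka* are shown as members described above that hold both motifs, with the matches to either strand of TTTGAA or CCAAT in capitals. They lie at chr11:40733388-40733687, minus strand, chr4:118437294-118437593, minus strand and chr2:172370521-172370820, minus strand.
Hmmr: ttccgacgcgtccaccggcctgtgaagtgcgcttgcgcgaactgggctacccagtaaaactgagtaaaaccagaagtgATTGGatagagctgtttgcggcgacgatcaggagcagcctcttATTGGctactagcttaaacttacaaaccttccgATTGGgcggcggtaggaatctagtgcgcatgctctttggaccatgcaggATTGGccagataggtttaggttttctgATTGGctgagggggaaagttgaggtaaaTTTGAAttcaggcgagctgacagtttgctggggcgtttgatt
Cdc20: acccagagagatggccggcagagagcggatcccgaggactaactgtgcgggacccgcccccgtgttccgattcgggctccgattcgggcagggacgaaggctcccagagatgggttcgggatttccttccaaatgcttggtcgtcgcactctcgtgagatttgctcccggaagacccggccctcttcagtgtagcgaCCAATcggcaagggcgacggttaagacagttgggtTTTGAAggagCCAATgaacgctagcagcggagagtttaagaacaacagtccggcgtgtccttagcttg
Aurka: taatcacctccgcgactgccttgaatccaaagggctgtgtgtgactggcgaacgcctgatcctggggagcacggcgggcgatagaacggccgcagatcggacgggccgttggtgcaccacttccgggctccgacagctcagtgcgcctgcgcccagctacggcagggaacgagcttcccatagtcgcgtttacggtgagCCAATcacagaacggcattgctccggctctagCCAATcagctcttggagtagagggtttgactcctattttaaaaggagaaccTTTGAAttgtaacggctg
The *Hmmr* promoter held 5 CCAAT matches and those of *Cdc20* and *Aurka* 2 each, and all 3 held 1 TTTGAA match.

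Of 45 tested genes of DNA replication, 4 were called lower and none higher, with a median of -0.64, and leaving out single hearts moved the count from 0 without WT/GFP heart 1, 2, 3 or 4 to 18 without KO/GFP heart 3. It was 9 with DESeq2 and 9 with column-sum scaling. They were *Rrm1* and *Rrm2*, the subunits of ribonucleotide reductase, the origin licensing factor gene *Cdc6* and the cyclin E gene *Ccne2*. *Rrm2* was at 30.2, 38.9, 65.7 and 14.5 CPM in the KO/GFP hearts and 84.3, 99.9, 86.0 and 93.4 CPM in the WT/GFP hearts (log2 difference -1.44 ± 0.35 SE, adjusted p = 0.0384). The *Rrm2* call was lost when KO/GFP heart 1 or WT/GFP heart 1, 2, 3 or 4 was left out (adjusted p 0.0788 to 0.109). *Ccne2* was at 6.95, 4.38, 6.61 and 3.58 CPM in the KO/GFP hearts and 10.1, 10.9, 9.68 and 10.2 CPM in the WT/GFP hearts (log2 difference -0.85 ± 0.19 SE, adjusted p = 0.0315). The *Ccne2* call was lost when KO/GFP heart 4 or WT/GFP heart 1, 2, 3 or 4 was left out (adjusted p 0.0645 to 0.0946). *Rrm1* differed by -0.84. The *Rrm1* call was lost when KO/GFP heart 1 or 4 or WT/GFP heart 1, 2, 3 or 4 was left out (adjusted p 0.0663 to 0.112). *Cdc6* differed by -1.05. The *Cdc6* call was lost when KO/GFP heart 1 or 4 or WT/GFP heart 1, 2, 3 or 4 was left out (adjusted p 0.103 to 0.14). For *Rrm2* the highest KO/GFP heart was heart 3, not heart 2.

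Tubulins build the microtubules of the spindle and of the cytoskeleton. Of 12 tested, 8 were called lower and none higher, with a median of -0.88. The count moved from 2 without KO/GFP heart 1 to 11 without KO/GFP heart 2, and it was 11 with DESeq2 and 11 with column-sum scaling. *Tuba4a*, an α-tubulin of differentiated cells, was at 45.4, 55.6, 47.2 and 38.8 CPM in the KO/GFP hearts and 126, 87.3, 75.9 and 99.8 CPM in the WT/GFP hearts (log2 difference -1.03 ± 0.16 SE, adjusted p = 0.00841), and its call held without any 1 heart. *Tubb5*, the most abundant member, was at 230.1, 358, 358 and 168 CPM in the KO/GFP hearts and 596, 518, 491 and 452 CPM in the WT/GFP hearts (log2 difference -0.94 ± 0.23 SE, adjusted p = 0.038). The *Tubb5* call was lost when KO/GFP heart 1 or 4 or WT/GFP heart 1, 2, 3 or 4 was left out (adjusted p 0.0587 to 0.116). Tubulin genes are near copies of one another, so reads may be split between members.

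Among G1 cyclins, cyclin-dependent kinases and their inhibitors, 2 of 14 were called higher and 2 lower, and single hearts left out moved these from 1 to 3 and from 0 to 3. *Cdkn1a*, which encodes the p21 inhibitor of the cell cycle, was at 109, 76.5, 109.7 and 124 CPM in the KO/GFP hearts and 58.7, 45.7, 47.8 and 44.9 CPM in the WT/GFP hearts (log2 difference 1.06 ± 0.15 SE, adjusted p = 0.00646), and the call held without any 1 heart. *Cdk6*, a G1 kinase, was also higher at 0.55 ± 0.10 (SE, adjusted p = 0.0148). The *Cdk6* call was lost when KO/GFP heart 1 or WT/GFP heart 2 was left out (adjusted p 0.0526 to 0.0616). *Ccnd2*, cyclin D2, was lower at 168, 211, 201 and 151 CPM in the KO/GFP hearts and 296, 297, 247.2 and 297 CPM in the WT/GFP hearts (log2 difference -0.64 ± 0.12 SE, adjusted p = 0.0177). The *Ccnd2* call was lost when KO/GFP heart 1 or WT/GFP heart 1, 2 or 4 was left out (adjusted p 0.053 to 0.0668). *Ccnd1*, cyclin D1, was at 94.2, 162, 151 and 58.1 CPM in the KO/GFP hearts and 194, 169, 172 and 165 CPM in the WT/GFP hearts (log2 difference -0.69 ± 0.28 SE, adjusted p = 0.167), and *Cdk4*, its kinase, differed by -0.27 ± 0.20 (SE, adjusted p = 0.462). The *Cdk4* ranges overlapped, and those of *Ccnd1* did not.

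p53 targets and genes of apoptosis had 7 of 23 tested members called higher and none lower, with a median of 0.39 and a count that moved from 2 without KO/GFP heart 1 or 4 or WT/GFP heart 2 to 9 without KO/GFP heart 2. It was 9 with DESeq2 and 4 with column-sum scaling. *Trp53inp1*, a p53-induced regulator of autophagy and death, was at 53.1, 33.5, 59.4 and 57.7 CPM in the KO/GFP hearts and 19.6, 21.8, 17.02 and 17.5 CPM in the WT/GFP hearts (log2 difference 1.35 ± 0.18 SE, adjusted p = 0.00405). *Bnip3*, a mitochondrial BH3 protein gene, was at 153, 91.7, 119.8 and 168 CPM in the KO/GFP hearts and 63.8, 67.5, 63.2 and 63.9 CPM in the WT/GFP hearts (log2 difference 0.99 ± 0.17 SE, adjusted p = 0.0109). Both calls held without any 1 heart. *Mcl1* and *Bcl2l1*, survival genes of the BCL2 family, were also called higher, *Mcl1* by 0.48 ± 0.10 (SE, adjusted p = 0.0216) and *Bcl2l1* by 0.89 ± 0.18 (SE, adjusted p = 0.0225). The *Mcl1* call was lost when KO/GFP heart 1 or 4 or WT/GFP heart 1, 2, 3 or 4 was left out (adjusted p 0.0522 to 0.0785). The *Bcl2l1* call was lost when KO/GFP heart 1 or 4 or WT/GFP heart 1 or 2 was left out (adjusted p 0.0567 to 0.0682). *Sesn1*, a sestrin gene of the stress response, differed by 0.94 ± 0.24 (SE, adjusted p = 0.0442). The *Sesn1* call was lost when KO/GFP heart 1, 3 or 4 or WT/GFP heart 1, 2, 3 or 4 was left out (adjusted p 0.057 to 0.13). *Fas*, the death receptor, differed by 0.84 ± 0.20 (SE, adjusted p = 0.0357) and *Pmaip1*, which encodes the BH3 protein Noxa, by 0.94 ± 0.21 (SE, adjusted p = 0.0326). The *Fas* call was lost when KO/GFP heart 1 or 4 or WT/GFP heart 1, 2, 3 or 4 was left out (adjusted p 0.0657 to 0.115). The *Pmaip1* call was lost when KO/GFP heart 1, 3 or 4 or WT/GFP heart 2, 3 or 4 was left out (adjusted p 0.0587 to 0.0848). *Mdm2*, the p53 ubiquitin ligase, differed by 0.35 ± 0.10 (SE, adjusted p = 0.0612), the death effector gene *Bax* by 0.39 ± 0.24 (SE, adjusted p = 0.372), the survival gene *Bcl2* by -0.50 ± 0.18 (SE, adjusted p = 0.12), *Perp* by 0.28 ± 0.10 (SE, adjusted p = 0.116) and the death receptor gene *Tnfrsf10b* by 0.42 ± 0.21 (SE, adjusted p = 0.265). None of these 5 passed the threshold.

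**Figure D3:**
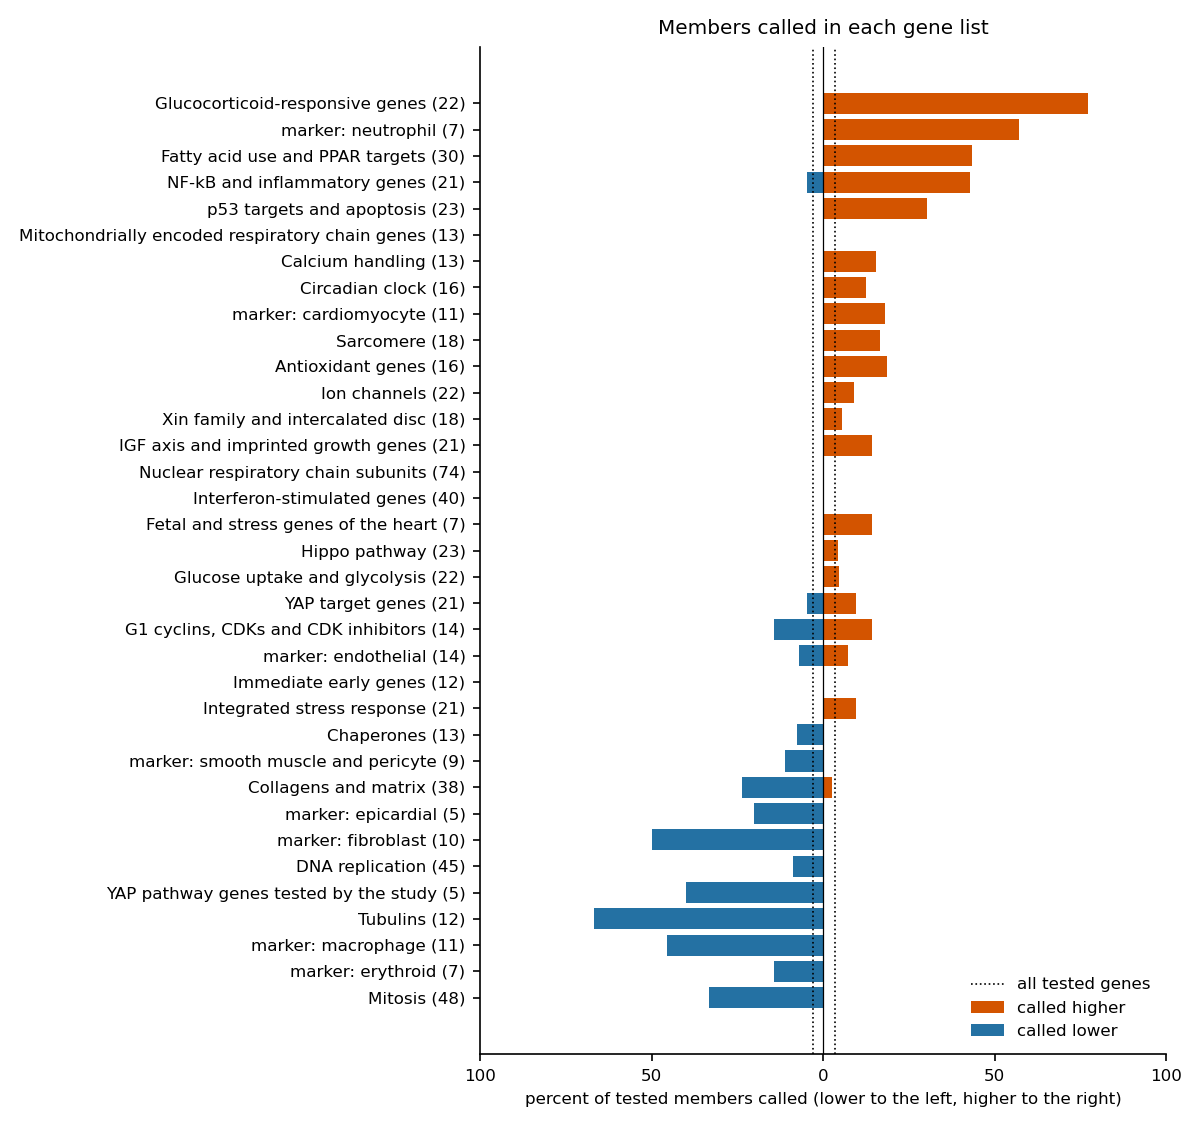
Members called higher and lower in KO/GFP hearts in each gene list (x axis, percent of tested members, lower to the left), with the lists on the y axis in the order of their median difference, the tested members in brackets and dotted lines at the shares over all tested genes. Glucocorticoid-responsive genes have the largest share upward, 17 of 22, and tubulins the largest downward, 8 of 12. The lists were chosen with earlier results of these data known.

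The Hippo pathway and YAP targets were examined, since the study asked whether Xinβ acts through YAP. By gene set enrichment the paper reported a YAP-conserved signature that was lower in KO/GFP than in WT/GFP hearts. In KO hearts it also reported more phosphorylated YAP and less nuclear YAP, with total YAP protein unaffected. The lists used here were chosen separately and hold mRNA levels only, so they do not test those results. Of 23 tested components of the pathway, 1 was called, and 3 without KO/GFP heart 2. It was *Tead3*, a TEAD factor through which YAP binds DNA, at 42.0, 38.5, 33.5 and 44.8 CPM in the KO/GFP hearts and 19.8, 15.7, 20.9 and 19.2 CPM in the WT/GFP hearts (log2 difference 1.03 ± 0.13 SE, adjusted p = 0.00334), and the call held without any 1 heart. *Yap1* itself was at 93.1, 83.8, 85.6 and 93.6 CPM in the KO/GFP hearts and 89.4, 88.0, 83.7 and 89.6 CPM in the WT/GFP hearts, with a difference of 0.02 ± 0.08 (SE, adjusted p = 0.915) whose sign changed under quantile or column-sum scaling and without KO/GFP heart 1 or 4 or WT/GFP heart 3. *Tead1* split both groups, at 141, 123, 18.3 and 31.8 CPM in the KO/GFP hearts and 142, 14.0001, 146 and 16.4 CPM in the WT/GFP hearts, and differed by 0.26 ± 0.90 (SE, adjusted p = 0.901), with a sign that also changed under alternatives.

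Of 21 tested YAP targets, 2 were called higher and 1 lower, with a median of -0.08. The number higher moved from 0 without KO/GFP heart 1 or WT/GFP heart 2 to 5 without KO/GFP heart 2, and the 1 lower was lost without 6 of the 8 hearts. The number higher was 4 with DESeq2 and 2 with column-sum scaling. *Ccn2*, the matricellular growth factor and a widely used YAP reporter gene, was higher at 135, 86.3, 108 and 137 CPM in the KO/GFP hearts and 65.0, 51.3, 74.2 and 68.7 CPM in the WT/GFP hearts (log2 difference 0.83 ± 0.17 SE, adjusted p = 0.0215). The *Ccn2* call was lost when KO/GFP heart 1 or 4 or WT/GFP heart 1 or 2 was left out (adjusted p 0.0547 to 0.0723). *Nt5e*, the ectonucleotidase CD73, was higher at 1.09 ± 0.21 (SE, adjusted p = 0.0163). The *Nt5e* call was lost when KO/GFP heart 1 or WT/GFP heart 2 was left out (adjusted p 0.0514 to 0.0515). *Axl*, a receptor tyrosine kinase gene, was lower at 84.2, 60.02, 79.1 and 87.9 CPM in the KO/GFP hearts and 109.8, 105, 115 and 116 CPM in the WT/GFP hearts (log2 difference -0.53 ± 0.12 SE, adjusted p = 0.0348). The *Axl* call was lost when KO/GFP heart 1 or 3 or WT/GFP heart 1, 2, 3 or 4 was left out (adjusted p 0.052 to 0.0928). *Ankrd1*, the cardiac ankyrin repeat protein gene, was at 515 to 604 CPM in KO/GFP hearts and 546 to 630.3 CPM in WT/GFP hearts. Its difference was -0.03 ± 0.09 (SE, adjusted p = 0.873), and it was positive without KO/GFP heart 3 or WT/GFP heart 3.

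The study itself followed 5 genes of the YAP pathway in KO hearts, so their choice is not independent of these mice. Of these, *Axl* and *Marcks*, which encodes a membrane-bound substrate of protein kinase C, were called lower, and all 5 differences were negative, with a median of -0.75. The count moved from 0 without KO/GFP heart 1 or WT/GFP heart 1, 2, 3 or 4 to 4 without KO/GFP heart 2, and it was 1 with edgeR, 4 with DESeq2 and 4 with column-sum scaling. *Marcks* was at 92.4, 155, 112 and 77.1 CPM in the KO/GFP hearts and 182, 186, 178 and 166 CPM in the WT/GFP hearts (log2 difference -0.75 ± 0.18 SE, adjusted p = 0.0397). The *Marcks* call was lost when KO/GFP heart 1, 3 or 4 or WT/GFP heart 1, 2, 3 or 4 was left out (adjusted p 0.0583 to 0.121). *Stmn1*, which encodes a microtubule-destabilizing protein, differed by -0.96 ± 0.27 (SE, adjusted p = 0.0653) and the actin bundler gene *Fscn1* by -0.68 ± 0.37 (SE, adjusted p = 0.305). Both had overlapping groups. *Top2a* is given above.

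The contractile and electrical machinery of cardiomyocytes was read next. Of 18 sarcomere genes, 3 were called higher and none lower, of 13 genes of calcium handling 2, of 22 ion channel genes 2, and of 18 genes of the intercalated disc 1, also none lower. Leaving out single hearts moved the sarcomere count from 1 without KO/GFP heart 1, 3 or 4 or WT/GFP heart 1, 2 or 4 to 5 without KO/GFP heart 2 and the calcium handling count from 0 without KO/GFP heart 1 or 4 or WT/GFP heart 1 or 2 to 3 without KO/GFP heart 3. The ion channel count moved from 0 without KO/GFP heart 1 or 4 or WT/GFP heart 1, 2 or 3 to 5 without KO/GFP heart 2, and that of the disc from 0 without KO/GFP heart 1 to 4 without KO/GFP heart 2. DESeq2 and column-sum scaling called 4 and 1 genes of calcium handling, 4 and 0 ion channel genes and 3 and 1 disc genes higher, and each also called 1 disc gene lower. *Tnnt2*, cardiac troponin T, was at 9924, 10951, 9829 and 9953 CPM in the KO/GFP hearts and 6223, 5690.4, 7776 and 6414 CPM in the WT/GFP hearts (log2 difference 0.65 ± 0.16 SE, adjusted p = 0.0384). The *Tnnt2* call was lost when KO/GFP heart 1, 3 or 4 or WT/GFP heart 1, 2 or 4 was left out (adjusted p 0.0524 to 0.128). *Cacna1c*, the pore of the L-type calcium channel, was at 384, 346.9, 421 and 465 CPM in the KO/GFP hearts and 171, 207, 287 and 279 CPM in the WT/GFP hearts (log2 difference 0.80 ± 0.17 SE, adjusted p = 0.0262). The *Cacna1c* call was lost when KO/GFP heart 1 or 4 or WT/GFP heart 1 or 2 was left out (adjusted p 0.0549 to 0.0844). *Pln*, the brake on the calcium pump of the sarcoplasmic reticulum, was at 1009.6, 917, 969 and 1124 CPM in the KO/GFP hearts and 631, 683, 828 and 656 CPM in the WT/GFP hearts (log2 difference 0.53 ± 0.12 SE, adjusted p = 0.0288). The *Pln* call was lost when KO/GFP heart 1 or 4 or WT/GFP heart 1, 2 or 4 was left out (adjusted p 0.0746 to 0.0908). In these 3 genes no KO/GFP heart was as low as a WT/GFP heart. *Myzap*, a gene of the intercalated disc, was at 444, 310.4, 389.6 and 465 CPM in the KO/GFP hearts and 228, 251, 250.5 and 226.8 CPM in the WT/GFP hearts (log2 difference 0.73 ± 0.13 SE, adjusted p = 0.0127). The *Myzap* call was lost when KO/GFP heart 1 was left out (adjusted p = 0.0514).

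Of 7 tested fetal and stress genes of the heart, 1 was called, *Tnni1*, the slow troponin I of the fetal heart, at 661, 494, 493 and 795 CPM in the KO/GFP hearts and 407, 382, 387 and 360.4 CPM in the WT/GFP hearts (log2 difference 0.64 ± 0.15 SE, adjusted p = 0.0378). The *Tnni1* call was lost when KO/GFP heart 1 or 4 or WT/GFP heart 1, 2, 3 or 4 was left out (adjusted p 0.0674 to 0.117). *Nppa*, atrial natriuretic peptide, was at 266, 417, 381 and 198.6 CPM in the KO/GFP hearts and 302, 172, 87.8 and 113 CPM in the WT/GFP hearts (log2 difference 0.999 ± 0.36 SE, adjusted p = 0.131), and *Nppb*, brain natriuretic peptide, at 97.9, 124, 146 and 77.7 CPM in the KO/GFP hearts and 210.1, 115, 156 and 115 CPM in the WT/GFP hearts (log2 difference -0.41 ± 0.23 SE, adjusted p = 0.333). The 2 groups overlapped for both peptides. *Myh7*, the fetal myosin heavy chain, was at 3413, 1372, 1730.4 and 4218 CPM in the KO/GFP hearts and 1545, 1236, 1410.5 and 1403 CPM in the WT/GFP hearts (log2 difference 0.79 ± 0.32 SE, adjusted p = 0.167). It was highest in KO/GFP hearts 1 and 4, and KO/GFP heart 2 lay within the WT/GFP range. *Myh6*, the adult chain, differed by 0.11 ± 0.22 (SE, adjusted p = 0.81), and its sign changed with quantile or column-sum scaling.

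Of 38 tested collagens and other matrix genes, 9 were called lower and 1 higher, with a median of -0.37, and the number lower moved from 4 without KO/GFP heart 1 to 15 without KO/GFP heart 3. It was 14 with DESeq2 and 12 with column-sum scaling. *Col15a1*, a basement membrane collagen, was at 133, 114, 189 and 106 CPM in the KO/GFP hearts and 259, 298, 311 and 383.02 CPM in the WT/GFP hearts (log2 difference -1.22 ± 0.18 SE, adjusted p = 0.00735), *Col3a1*, a fibrillar collagen, at 996, 1208, 1364 and 791 CPM in the KO/GFP hearts and 1945, 2186, 2120.1 and 2276 CPM in the WT/GFP hearts (log2 difference -0.99 ± 0.16 SE, adjusted p = 0.00981) and *Col6a3*, a microfibrillar collagen, at 74.9, 71.1, 98.5 and 70.5 CPM in the KO/GFP hearts and 124, 142, 137 and 143 CPM in the WT/GFP hearts (log2 difference -0.80 ± 0.12 SE, adjusted p = 0.00726). Every KO/GFP heart was below every WT/GFP heart in all 3, and the calls held without any 1 heart. *Col1a1*, the main fibrillar collagen, differed by -0.76 ± 0.17 (SE, adjusted p = 0.027). The *Col1a1* call was lost when KO/GFP heart 1 or WT/GFP heart 1, 2, 3 or 4 was left out (adjusted p 0.0604 to 0.0885).

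Fibroblasts make most of the collagen of the heart, and their markers moved with the matrix genes, though their part in that result was not tested. Of 10 fibroblast markers 5 were called lower and none higher, with a median of -0.62. The number lower moved from 3 without KO/GFP heart 1 or WT/GFP heart 1, 2 or 4 to 5 without KO/GFP heart 2 or 3 when single hearts were left out. Their summed level was 1228 to 1352 CPM in KO/GFP hearts and 1678 to 1969 CPM in WT/GFP hearts. *Dpt*, dermatopontin, was at 70.5, 90.1, 79.0 and 72.5 CPM in the KO/GFP hearts and 146, 183, 177 and 184 CPM in the WT/GFP hearts (log2 difference -1.13 ± 0.11 SE, adjusted p = 0.00108), and *Mfap5*, a microfibril protein gene, at 28.4, 37.6, 31.9 and 24.1 CPM in the KO/GFP hearts and 51.8, 60.5, 61.8 and 67.1 CPM in the WT/GFP hearts (log2 difference -0.97 ± 0.14 SE, adjusted p = 0.00682). Both calls held without any 1 heart.

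Markers of myeloid cells differed by cell type. Of 11 macrophage markers 5 were called lower and none higher, with a median of -0.90. One of them, *Ms4a7*, passed the filter only through the WT/GFP hearts, and without it 4 of 10 were called, with a median of -0.92. With all 11, leaving out single hearts moved the count from 1 without WT/GFP heart 2 to 6 without KO/GFP heart 4. Their summed level was 122.8, 68.1, 68.4 and 151.0 CPM in KO/GFP hearts and 235.4, 196.6, 141.8 and 146.8 CPM in WT/GFP hearts. *Csf1r*, the receptor on which macrophages depend, was at 13.3, 20.2, 11.2 and 16.9 CPM in the KO/GFP hearts and 38.7, 40.9, 27.2 and 34.9 CPM in the WT/GFP hearts (log2 difference -1.16 ± 0.19 SE, adjusted p = 0.00959), and the call held without any 1 heart. *Adgre1*, the F4/80 antigen, differed by -1.42 ± 0.29 (SE, adjusted p = 0.0216) and the complement gene *C1qa* by -1.55 ± 0.34 (SE, adjusted p = 0.0271). The *Adgre1* call was lost when WT/GFP heart 1, 2 or 4 was left out (adjusted p 0.0566 to 0.0698). The *C1qa* call was lost when KO/GFP heart 1 or 3 or WT/GFP heart 1, 2, 3 or 4 was left out (adjusted p 0.0505 to 0.0821).

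Of 7 neutrophil markers 4 were called higher and none lower, with a median of 1.17. One of them, *Retnlg*, passed the filter only through the KO/GFP hearts, and without it 3 of 6 were called, with a median of 1.26. With all 7, the count moved from 2 without KO/GFP heart 1 to 6 without KO/GFP heart 2. Their summed level was 58.9, 35.4, 48.0 and 54.5 CPM in KO/GFP hearts and 13.6, 17.01, 7.72 and 9.97 CPM in WT/GFP hearts, with no overlap. *S100a8* and *S100a9*, the subunits of the alarmin calprotectin, were at 18.2, 10.9, 12.8 and 18.1 CPM and 21.4, 15.6, 15.8 and 21.3 CPM in KO/GFP hearts, against 2.69, 2.62, 1.09 and 1.70 CPM and 3.59, 5.13, 2.61 and 4.77 CPM in WT/GFP hearts. They differed by 2.41 ± 0.24 (SE, adjusted p = 0.00107) and 1.97 ± 0.20 (SE, adjusted p = 0.00122), and both calls held without any 1 heart. The 3 lymphocyte markers were below the filter for testing and summed to 0 to 0.351 CPM in KO/GFP hearts and 2.27 to 3.70 CPM in WT/GFP hearts.

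Of 7 erythroid markers 1 was called, *Hbb-bs*, a β-globin gene whose reads may be split with its near copy *Hbb-bt*, at 387, 672, 544 and 351 CPM in the KO/GFP hearts and 883, 1015, 871 and 2579.9 CPM in the WT/GFP hearts (log2 difference -1.33 ± 0.34 SE, adjusted p = 0.0483). The *Hbb-bs* call was lost when KO/GFP heart 1, 3 or 4 or WT/GFP heart 1, 2, 3 or 4 was left out (adjusted p 0.0546 to 0.136). The number of erythroid markers called lower moved from 0 without KO/GFP heart 1, 3 or 4 or WT/GFP heart 1, 2 or 3 to 6 without KO/GFP heart 2, and it was 3 with DESeq2 and 4 with column-sum scaling. The list had a median of -1.14 and summed to 1214 to 3119 CPM in KO/GFP hearts and 3393 to 8425 CPM in WT/GFP hearts. Of 14 endothelial markers 1 was called higher and 1 lower, with 3 lower when KO/GFP heart 2 was left out. *Vwf*, von Willebrand factor, was at 178, 93.2, 74.2 and 232 CPM in the KO/GFP hearts and 48.0, 51.8, 39.7 and 49.3 CPM in the WT/GFP hearts (log2 difference 1.45 ± 0.31 SE, adjusted p = 0.0262), and *Kdr*, a receptor of vascular endothelial growth factor, at 257, 260.1, 249 and 278 CPM in the KO/GFP hearts and 365, 359, 317 and 363.3 CPM in the WT/GFP hearts (log2 difference -0.43 ± 0.09 SE, adjusted p = 0.0218). The *Vwf* call was lost when KO/GFP heart 1 or WT/GFP heart 1, 2, 3 or 4 was left out (adjusted p 0.0656 to 0.084). The *Kdr* call was lost when KO/GFP heart 1 or WT/GFP heart 1, 2 or 4 was left out (adjusted p 0.0624 to 0.0785). Smooth muscle and pericyte markers had 1 of 9 and epicardial markers 1 of 5 called lower, cardiomyocyte markers 2 of 11 higher, and Schwann cell markers none of 2. Without single hearts the smooth muscle count ranged from 0 to 2, the epicardial from 0 to 1 and the cardiomyocyte from 0 to 2. No adipocyte or skeletal muscle marker passed the filter, and those of skeletal muscle summed to 0.661 to 1.70 CPM in KO/GFP hearts and 0.717 to 0.892 CPM in WT/GFP hearts. The share of each cell type in the differences of other gene groups was not tested.

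Inflammatory genes controlled by NF-κB had 9 of 21 tested members called higher and 1 lower, with a median of 0.56, and the number higher moved from 4 without KO/GFP heart 1 or WT/GFP heart 2 or 4 to 12 without KO/GFP heart 2. One of the 9 was *Lcn2*, which passed the filter only through the KO/GFP hearts, and without it 8 of 20 were called higher. *Ccl2*, the chemokine that draws monocytes, was at 12.2, 5.56, 11.8 and 9.03 CPM in the KO/GFP hearts and 3.11, 1.06, 2.66 and 1.70 CPM in the WT/GFP hearts (log2 difference 1.76 ± 0.28 SE, adjusted p = 0.00846). *Icam1*, an adhesion molecule for leukocytes, was at 38.8, 32.3, 44.1 and 36.9 CPM in the KO/GFP hearts and 23.8, 16.4, 14.1 and 13.1 CPM in the WT/GFP hearts (log2 difference 1.15 ± 0.18 SE, adjusted p = 0.00839), and *Nfkbia*, the inhibitor of NF-κB that is also its target, at 69.0, 63.0, 70.0 and 73.2 CPM in the KO/GFP hearts and 38.4, 38.1, 47.8 and 34.6 CPM in the WT/GFP hearts (log2 difference 0.78 ± 0.11 SE, adjusted p = 0.00656). Each was higher in every KO/GFP heart. *Cxcl12*, a chemokine made mainly by stromal cells, went the other way at 61.1, 67.5, 53.2 and 59.8 CPM in the KO/GFP hearts and 144, 158, 134 and 151 CPM in the WT/GFP hearts (log2 difference -1.27 ± 0.10 SE, adjusted p = 3.34e-04). All 4 calls held without any 1 heart.

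Interferon-stimulated genes, the antiviral genes switched on by type I and II interferons, were read because both groups had received a virus. None of the 40 tested was called in either direction, with a median of 0.01, 3 had an unadjusted p under 0.05, and edgeR called 1 and DESeq2 2. Without WT/GFP heart 1, 2 were called. The WT/GFP hearts were far apart, with mean levels of 1.18, 0.14, -0.73 and -0.60 on the log2 scale relative to their own mean, and the KO/GFP hearts were at -0.13, 0.16, 0.18 and -0.34. In the uninjected hearts, whose table was normalized separately, 22 of 39 tested members were called higher, with a median of 0.76. There the KO hearts were at 0.69, 0.69, 0.71 and 1.16 and the WT hearts at 0.02, -0.03, -0.11 and 0.13. *Irf7*, the master regulator of the interferon response, was at 5.84, 8.4997, 6.55 and 3.80 CPM in the KO/GFP hearts and 9.98, 5.52, 1.63 and 2.68 CPM in the WT/GFP hearts, overlapping ranges (log2 difference 0.44 ± 0.41 SE, adjusted p = 0.567). Whether the interferon difference itself differed between injected and uninjected hearts was not tested, since the 2 experiments differ in virus, reads and normalization, which cannot be told apart.

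The remaining lists held few called genes. Of 21 genes of the integrated stress response 2 were called higher, of 16 antioxidant genes 3, of 16 clock genes 2 and of 21 genes of the IGF axis and imprinted growth genes 3, with none lower. Single hearts left out moved these counts of higher genes between 0 and 3 for the stress response, 1 and 4 for antioxidant genes, 1 and 3 for the clock and 1 and 5 for the IGF axis. Without KO/GFP heart 2, 3 genes of the stress response and 2 of the IGF axis were called lower. Of 13 chaperones 1 was called lower. This number was 0 without KO/GFP heart 1 or 4 or any WT/GFP heart, and 2 with DESeq2 or column-sum scaling. Of 12 immediate early genes none was called by limma, where 3 had an unadjusted p under 0.05 and edgeR called 0 and DESeq2 1. Without WT/GFP heart 3, limma called 1 immediate early gene higher. *Gstm1*, a glutathione transferase gene, was at 69.0, 54.3, 43.9 and 82.8 CPM in the KO/GFP hearts and 27.6, 21.8, 25.2 and 18.2 CPM in the WT/GFP hearts (log2 difference 1.37 ± 0.20 SE, adjusted p = 0.00646), and *Gpx3*, the secreted glutathione peroxidase, at 126, 103, 120.1 and 139.6 CPM in the KO/GFP hearts and 66.0, 59.2, 66.1 and 27.9 CPM in the WT/GFP hearts (log2 difference 1.21 ± 0.25 SE, adjusted p = 0.0229). *Peg3*, an imprinted growth regulator, was at 298, 207, 199.2 and 347.6 CPM in the KO/GFP hearts and 100.6, 110.3, 111 and 120.1 CPM in the WT/GFP hearts (log2 difference 1.20 ± 0.17 SE, adjusted p = 0.00633), and *Per2*, a clock repressor, at 39.5, 24.6, 45.9 and 36.6 CPM in the KO/GFP hearts and 17.6, 13.8, 15.7 and 16.6 CPM in the WT/GFP hearts (log2 difference 1.126 ± 0.18 SE, adjusted p = 0.00858). *Igf1r*, the IGF receptor, differed by 0.49 ± 0.12 (SE, adjusted p = 0.0441). The *Igf1r* call was lost when KO/GFP heart 1, 3 or 4 or WT/GFP heart 1, 2, 3 or 4 was left out (adjusted p 0.0543 to 0.137). The *Gpx3* call was lost when KO/GFP heart 1 or 4 or WT/GFP heart 2 was left out (adjusted p 0.0541 to 0.0702), and those of *Gstm1*, *Peg3* and *Per2* held without any 1 heart.

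The 4 KO/GFP hearts took a common order in several lists. Relative to the WT/GFP mean, the mean log2 level of mitosis genes was -1.51, -0.33, -0.77 and -2.21 in KO/GFP hearts 1 to 4, and that of glucocorticoid-responsive genes was 1.75, 0.83, 1.26 and 1.89. Fatty acid genes were at 0.75, 0.34, 0.45 and 0.93. In these 3 lists heart 4 lay farthest from WT/GFP, then heart 1, heart 3 and heart 2. Macrophage markers took another order, at -0.58, -1.48, -1.34 and -0.34, with hearts 2 and 3 the lowest, and fibroblast markers were nearly even at -0.48, -0.50, -0.55 and -0.44. The WT/GFP hearts lay between -0.15 and 0.17 for mitosis genes and between -0.13 and 0.20 for glucocorticoid-responsive genes, and thus did not overlap with the KO/GFP hearts. These levels share the same 8 libraries and are given as a description.

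**Figure D4:**
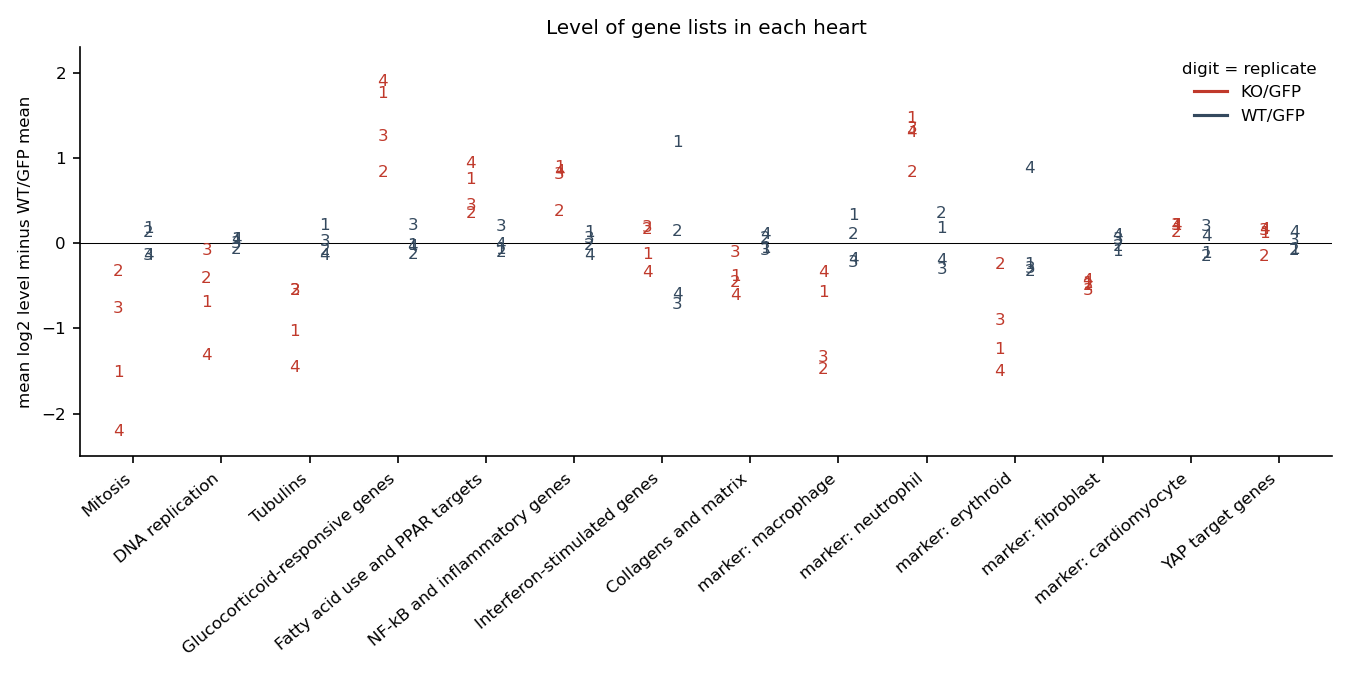
Mean log2(CPM + 1) of the members of selected gene lists in each heart minus the mean of the WT/GFP hearts (y axis), with KO/GFP and WT/GFP hearts as numbered points. KO/GFP heart 4 is farthest from WT/GFP for mitosis (-2.21) and glucocorticoid-responsive genes (1.89), and the WT/GFP hearts are widely spread for interferon-stimulated genes.

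The same comparison in uninjected hearts called 1044 of 15598 tested genes (6.69%), 504 higher (3.23%) and 540 lower (3.46%), and it shares no library with the injected one. Of 921 genes called in KO/GFP hearts and tested in both, 428 were called in the same direction without injection (46.5%), 238 higher and 190 lower, and 893 had the same sign. Seen from the uninjected side the 428 were 42.4% of 1010 called genes. *Serpina3n* differed by 3.06 in uninjected hearts, *Hmcn2* by -3.56 and *Cx3cr1* by -2.30. Glucocorticoid-responsive genes had 16 of 22 members called higher in uninjected hearts and fatty acid genes 16 of 30. Mitosis genes had 3 of 48 called lower by limma (45 at an unadjusted p under 0.05), with a median of -1.48 and 1 positive difference. Their mean log2 level relative to uninjected WT was -1.93, -1.60, -2.35 and 0.15 in the 4 uninjected KO hearts, so heart 4 lay within the WT range of -0.15 to 0.17. Tubulins had 0 of 11 called lower by limma (2 at an unadjusted p under 0.05), with a median of -0.50 and all differences negative, and lay at 0.02, -0.94, -1.20 and 0.09, with KO hearts 1 and 4 within the WT range of -0.13 to 0.18. *Tuba8* differed by -0.59 there, with an adjusted p of 0.303.

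Only *Frmd5* and *Prr33* were called in opposite directions in the 2 experiments. *Frmd5*, a FERM domain protein gene, was at 83.6, 100.4, 72.4 and 83.4 CPM in the KO/GFP hearts and 35.3, 38.7, 55.8 and 52.8 CPM in the WT/GFP hearts (log2 difference 0.90 ± 0.16 SE, adjusted p = 0.0144) and differed by -0.73 in uninjected hearts (adjusted p = 0.0239). Its injected call was lost when KO/GFP heart 1 or WT/GFP heart 2 was left out (adjusted p 0.051 to 0.0517). *Prr33*, a proline-rich protein gene, was at 2.55, 3.92, 2.57 and 3.08 CPM in the KO/GFP hearts and 1.14, 1.28, 1.25 and 1.15 CPM in the WT/GFP hearts (log2 difference 0.86 ± 0.16 SE, adjusted p = 0.0154) and differed by -1.12 in uninjected hearts (adjusted p = 0.00269). The change between the experiments was not tested for either gene.

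**Figure D5:**
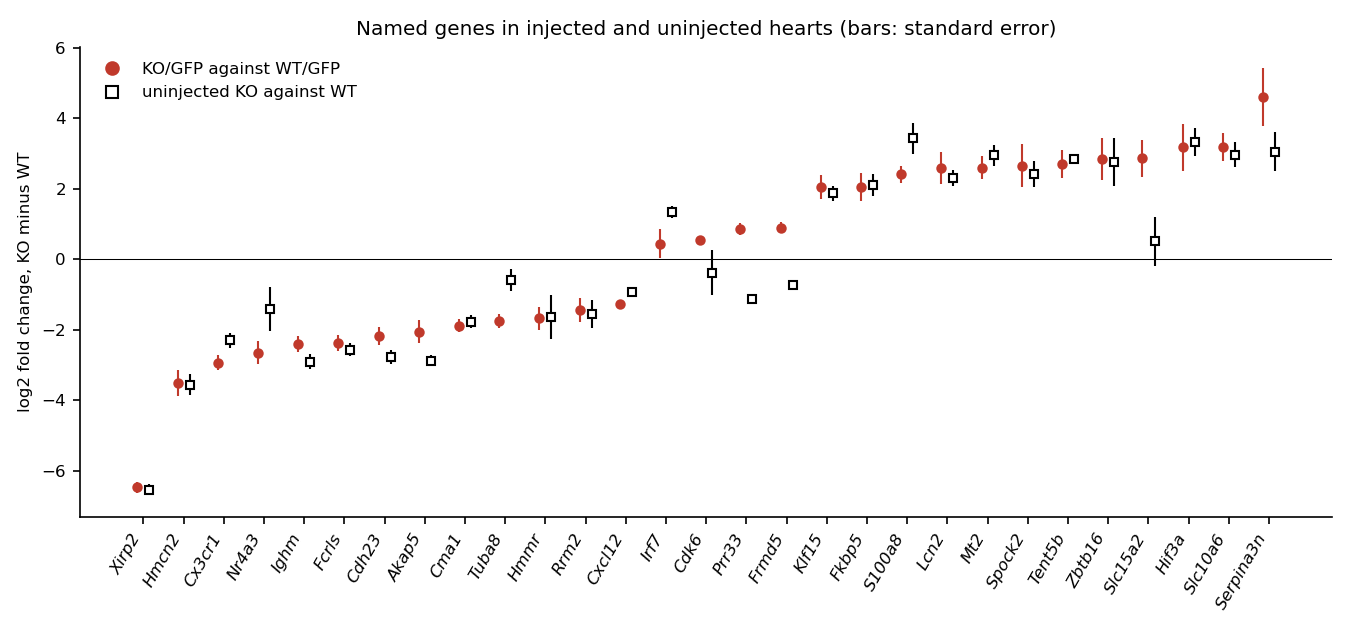
Difference between KO and WT (y axis, log2, mean and SE, n = 4 hearts a group) for the genes on the x axis, in AAV9-GFP hearts (filled circles) and in uninjected hearts (open squares). Most of the largest differences recur in uninjected hearts, with *Xirp2* at -6.48 and -6.54, whereas *Frmd5* and *Prr33* lie on opposite sides of 0.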

How the data were processed

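The authors trimmed the reads with Cutadapt 2.3, checked them with FastQC, aligned them to GRCm38 with HISAT2 2.1.0, assembled transcripts with StringTie 1.3.4 and calculated CPM with edgeR 3.26.1, per the paper's methods and the submitters' processing notes. Whether the counting used strand is not given in the sources used here. The deposited values are a normalized signal, CPM whose columns sum to between 951561 and 1134439 in the 8 libraries used, so they were read as CPM on scaled library sizes. Every value was a whole multiple of what 1 read is worth within 0.1 read (100% of values), which recovered the read counts. The authors tested differences with Fisher's exact test.

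Values were tested as log2(CPM + 1) with limma 3.58.1 in R 4.3.3, with a trend of variance on mean and p-values adjusted by Benjamini and Hochberg (called under 0.05). Genes had to exceed 1 CPM in 4 or more of 8 libraries. The deposited unit was planned as plain CPM and the test was kept. The labels give separate samples of each group, and p-values set the difference between groups against the spread between these hearts. The litter of each heart was not among the labels used and entered no fit. Uninjected hearts were fitted alone, because their table was normalized separately, and no test was made across the tables. Figures were drawn with matplotlib 3.10.9 in Python 3.11.15. Symbols and positions came from GENCODE M21 and promoters from RefSeq.

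The comparison, the gene lists and the tests were chosen with earlier results of these data known, and the mast cell and resident macrophage lists after their values were seen. Genes named are *Xirp2* and *Xirp1*, the 10 largest increases and decreases among called genes with groups that do not overlap (sex-linked genes left out), up to 4 called and the 2 most abundant members of each list, and genes the study measured by qRT-PCR, 162 in all. One result that the rule names is not reported here. A further 20 were chosen after their values were seen, namely *Fkbp5*, *Klf15*, *Map3k6*, *Sgk1*, *Aurka*, *Yap1*, *Tead1*, *Irf7*, *Frmd5*, *Prr33*, *Hdc*, *Tpsb2*, *Mcpt4*, *Cbr2*, *Gm13601*, *Fap*, *Scn3a*, *Fign*, *Sesn1* and *mt-Atp6*.

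Alternatives were median-ratio, quantile and column-sum scaling, a pseudocount of 0.1, other filters, no trend, library weights, all 16 injected libraries in the fit, the recovered reads in edgeR 4.0.16 or DESeq2 1.42.0, a sex covariate, a replicate block, a fold threshold and leaving out each heart. The tests were tried on simulated data first. One read was worth 0.0544 to 0.0654 CPM, which sets the precision of low values. Hearts injected with the YAP virus entered only the fit with all 16 libraries.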

Additional observations from a re-analysis of the deposited data

Results flagged for a closer look

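In 232 groups of 4 hearts, 17 had 1 heart separated from the other 3 by more than Dixon's 95% limit, where chance gives about 5%. In 3 of these the other 3 hearts were at 0, so that any read sets the heart apart, which leaves 14. In KO/GFP hearts, *Tent5b* was at 2.88 CPM in heart 2 against 11.3 to 13.9 CPM in the others. *Tnnt2* was at 10951 CPM in heart 2 against 9829 to 9953 CPM, and *mt-Atp6* at 13689 CPM in heart 2 against 2001 to 2230 CPM. *Mcl1* was at 236 CPM in heart 2 against 283 to 289.9 CPM. *Cma1* was at 0.351 CPM in heart 3 and *Mcpt4* and *Cbr2* at 0.11 CPM in heart 4, with the other 3 hearts at 0. *Fap* was at 4.80 CPM in heart 3 against 3.53 to 3.64 CPM.

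Among WT/GFP hearts, heart 3 stood apart for *Mlycd* at 123.9 CPM, *Ccnd2* at 247.2 CPM, *Ankrd1* at 630.3 CPM and *Kdr* at 317.4 CPM, heart 4 for *Stmn1* at 88.2 CPM, *Hbb-bs* at 2579.9 CPM and *Gpx3* at 27.9 CPM, heart 1 for *Cx3cr1* at 17.2 CPM and heart 2 for *Bnip3* at 67.5 CPM. *Stmn1* and *Gpx3* were low and *Hbb-bs* high in heart 4, and *Ccnd2* and *Kdr* were low and *Mlycd* and *Ankrd1* high in heart 3.

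In *Frmd5* and *Prr33* the KO hearts were higher after AAV9-GFP, by 0.90 and 0.86 on the log2 scale, and lower without injection, at -0.73 and -1.12, in every heart of each group. The difference between the experiments was not tested.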

How the results depend on the processing

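Of 116 named genes followed under the alternatives that tested them, 93 were called, and no called gene reversed. Of 2431 alternative values, 2112 kept direction and side of the threshold, 267 lost a call, 36 gained one and 16 reversed. The stricter filter left 112 of these genes and DESeq2 gave 115 an adjusted p. Leaving out 1 heart gave -0.0037 to 0.049 for *Yap1*, -0.3 to 0.79 for *Tead1* and -0.073 to 0.016 for *Ankrd1*. The reversals were *Fabp3* under quantile normalization (-0.017), *Yap1* under quantile (-0.0084) and column-sum scaling (-0.089) and without KO/GFP heart 1 (-0.0013), KO/GFP heart 4 (-0.0037) or WT/GFP heart 3 (-0.0012), *Tead1* with edgeR (-0.011), with DESeq2 (-0.012) and without KO/GFP heart 1 (-0.17) or 2 (-0.11) or WT/GFP heart 2 (-0.30) or 4 (-0.23), *Ankrd1* without KO/GFP heart 3 (0.0031) or WT/GFP heart 3 (0.016), and *Myh6* under quantile (-0.11) and column-sum scaling (-0.0021). The count of 962 called genes, 532 higher and 430 lower, became 4227 with library weights (2059 and 2168), 2061 with all 16 injected libraries in the fit (998 and 1063), 1754 with DESeq2 (915 and 839) and 330 when a log2 change of at least 1 was also required. Column-sum scaling, added after the data were seen, gave 344 higher and 840 lower. Leaving out 1 heart gave 262 to 1883 called genes, 150 to 975 higher and 112 to 908 lower. The other settings (median-ratio or quantile scaling, pseudocount, filters, no trend, edgeR and the sex covariate) gave 832 to 1004 called genes. In uninjected hearts the count of 1044 ranged from 379 to 2098 when 1 heart was left out, settings also added after the data were seen. The cause of these shifts was not tested.

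With the replicate number as a block, 399 genes were called (238 and 161). In uninjected hearts the block, added after the data were seen, gave 201 higher and 184 lower, against 504 and 540 without it. The deviations of same-numbered injected hearts correlated at -0.055, -0.141, -0.085 and 0.041, so the numbers were not taken to pair the hearts.

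One KO/GFP and one WT/GFP heart were female, too few for a comparison within each sex. Genes near 1 CPM rest on few reads.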

Other observations

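Genes of 2 minor cell types were looked at because *Cma1* and *Cx3cr1* had been seen among the largest decreases, so they are given by their levels, with no count or test. Among mast cell genes, the protease gene *Mcpt4* was at 0, 0, 0 and 0.110 CPM in the KO/GFP hearts and 2.51, 2.06, 3.64 and 1.37 CPM in the WT/GFP hearts, and *Tpsb2*, a tryptase gene, was at 0.124, 0.196, 0 and 0 CPM in the KO/GFP hearts and 3.77, 1.67, 2.94 and 1.59 CPM in the WT/GFP hearts. Like *Cma1*, both were below 1 CPM in every KO/GFP heart and entered the tests only through the WT/GFP hearts. *Hdc*, which encodes the histidine decarboxylase that makes histamine and which granulocytes also use, was at 9.44, 11.3, 9.95 and 12.6 CPM in the KO/GFP hearts and 3.71, 2.73, 2.66 and 3.07 CPM in the WT/GFP hearts, and its groups did not overlap. The 7 listed mast cell genes summed to 46.5 to 58.9 CPM in KO/GFP hearts and 52.4 to 61.3 CPM in WT/GFP hearts, ranges that overlap.

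Among genes of resident macrophages, *Cbr2*, a carbonyl reductase gene, was at 0, 0, 0 and 0.110 CPM in the KO/GFP hearts and 3.53, 2.62, 1.79 and 1.26 CPM in the WT/GFP hearts. It too passed the filter only through the WT/GFP hearts, as did *Cx3cr1*. The 8 listed genes summed to 61.8, 19.9, 20.8 and 77.4 CPM in KO/GFP hearts and 75.2, 52.7, 53.1 and 55.8 CPM in WT/GFP hearts. The ranges of this sum overlapped.

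*Tead1* took levels from 14.0001 to 146 CPM within the WT/GFP group alone, and the 8 hearts fell into levels of 14.0001 to 31.8 CPM in 4 hearts and 123 to 146 CPM in the other 4, with 2 of each genotype in each. *mt-Atp6*, a mitochondrially encoded ATP synthase subunit, was at 2010.4, 13689, 2230.3 and 2001 CPM in the KO/GFP hearts and 1797, 1711, 2301 and 1819 CPM in the WT/GFP hearts (log2 difference 0.81 ± 0.54 SE, adjusted p = 0.409).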
